A study of Danio rerio with 5 samples.

Results

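The zebrafish apolipoprotein genes considered here are apoa1a, apoa1b, apoa2, apoa4a, apobb.1, apoba, apoea, apoeb, apoc2 and apom, chosen by name. The choice was made with earlier results of these data known. Of these 10 genes, 7 had at least 1 probe on the array, making 16 probes among 43603. These were apoa1a (2 probes), apoa4a (2), apoeb (8), and apoa2, apobb.1, apoea and apom (1 each). No probe could be matched by accession to apoa1b, apoba or apoc2, so these 3 genes were not analysed here. RNA was measured in whole zebrafish embryos collected at 14 h post fertilization. Embryos had been injected at the 1-cell stage with morpholinos, which are modified antisense oligomers used to block translation or splicing of one transcript. Each embryo of the control group (3 arrays) was given 7.5 ng of a control morpholino. Each embryo of the gata5/6 morpholino group (2 arrays) was given a mixture of 6.25 ng against gata5 and 1.25 ng against gata6. The labels give no strain and no mutant allele, and they describe the gata5/6 mixture as a way to lower gata4, gata5 and gata6 together, citing an earlier report for gata4.

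Apolipoproteins are the proteins that wrap fats and cholesterol into water-soluble particles. Apolipoprotein B is the large structural protein of the particles that carry fat out of a cell, whereas the smaller A, C, E and M proteins can move between particles, where they steer lipases, lipid transfer and uptake by receptors. In the zebrafish embryo the yolk syncytial layer, a multinucleate layer around the yolk, packs yolk lipid into lipoproteins and sends it to the body. The adult liver and intestine make the same proteins. At this stage the liver bud has not yet formed, and RNA of whole embryos does not show which cells a signal came from.

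Between 70.1% and 71.1% of probes were well above background on each array, and no spot was saturated. Values are log2 signals relative to the 75th percentile of the array, which ranged from 506 to 574 intensity units. Probes differ in brightness per RNA molecule, so no gene's level is set against another's. All control arrays shared 1 slide and scan and both knockdown arrays another, which means that group and batch cannot be told apart. Nothing in the labels ties replicates to separate clutches. The p-values therefore reflect only how these samples varied, which may be technical, and the small number of arrays limits the precision. The median SD of log2 signal was 0.065 in the control group and 0.170 in the gata5/6 morpholino group, while the group comparison pooled both. The gata4 signal was 1.56-fold lower in the gata5/6 morpholino group, while the gata5 and gata6 signals were 3.95-fold and 7.21-fold higher. A morpholino need not lower the RNA of its target, so these levels do not check the injection.

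The measured apolipoprotein genes did not move together after gata5/6 morpholino. Signals of apoa4a and apoea fell 15.2-fold and 13.2-fold on their brightest probes, those of apoa1a and apobb.1 fell 1.95-fold and 1.34-fold, those of apom and apoa2 rose 2.57-fold and 1.61-fold, and apoeb did not pass. A gene passed at a Benjamini-Hochberg adjusted p under 0.05 in a limma fit across all 10792 genes tested. By that rule 4 of the 7 genes were lower and 2 higher, whereas among all genes tested 7.17% were lower and 7.84% higher, or 15% in either direction. The genes were chosen with earlier results of these data known, so such shares describe them and do not test the family. A fall of at least 2-fold was reached by 2 of the 7 genes and by 2.15% of all genes. The median log2 change was -0.42 over the 7 genes and 0.04 over all genes tested. All 7 genes were well above background on all 3 control arrays, and apoea alone was below that mark on 1 gata5/6 morpholino array. With only probes above background on all arrays, apoea was left out and 3 genes were lower. The groups did not overlap for 6 of the 7 genes, a mark that 50.9% of all genes also met. In RNA of whole embryos, fewer cells of a type and less RNA per cell cannot be told apart.

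**Figure D1:**
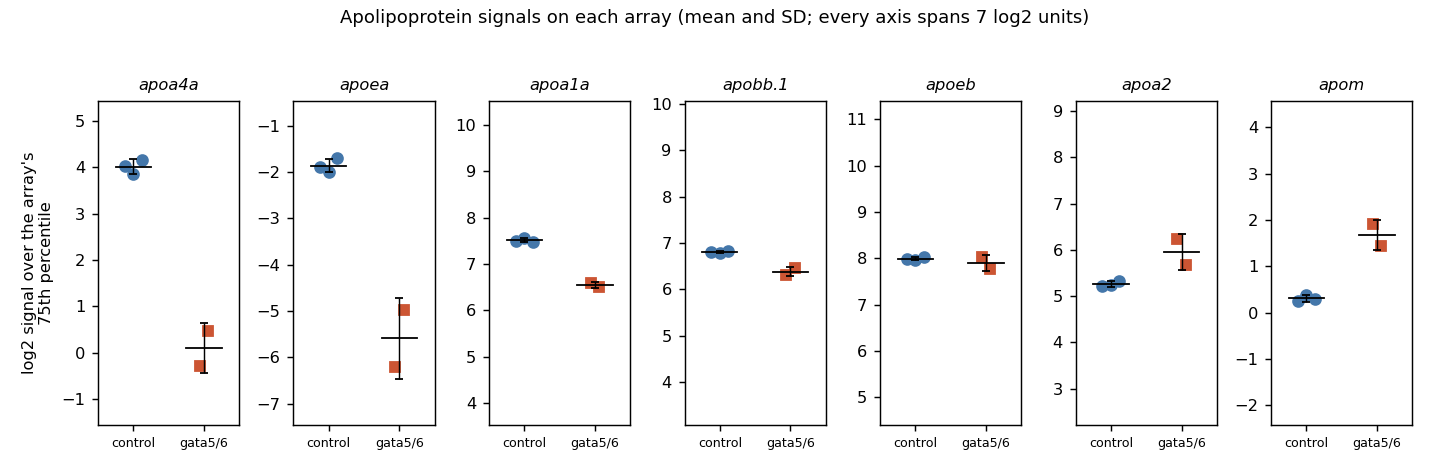
Signal of each measured apolipoprotein gene on every array, as log2 over the array's 75th percentile. Circles are the 3 control arrays, squares the 2 gata5/6 morpholino arrays, and bars the mean and SD. The drop is deepest for apoa4a and apoea, the groups overlap only for apoeb, and heights should not be compared between genes.

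Apolipoprotein A-IV, which apoa4a encodes, is a lipid-binding protein of particles secreted by gut and yolk cells. The log2 signal of apoa4a was 4.02, 3.86 and 4.17 on control arrays 1, 2 and 3, and -0.29 and 0.47 on gata5/6 morpholino arrays 1 and 2. Every control array lay more than 3 log2 units above both knockdown arrays. This was a 15.2-fold fall, a log2 change of -3.92 with SE 0.231 and a limma adjusted p of 0.000357. The other apoa4a probe gave a change of -3.30. The probes disagreed on which knockdown array was the lower of the pair, with -0.91 on array 1 and -1.18 on array 2 for the other probe. The fall of apoa4a was the 5th lowest of the 10792 changes and that of apoea the 8th lowest. The rank of apoea rests on a dim probe that was well above background on only 1 knockdown array.

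Apolipoprotein E is a ligand through which lipoprotein receptors take up particles, and zebrafish have copies of its gene named apoea and apoeb. The log2 signal of apoea was -1.89, -1.997 and -1.71 on the control arrays and -6.21 and -4.98 on the gata5/6 morpholino arrays. In intensity units these were 144 to 171 in controls and 6.84 and 17.9 after gata5/6 morpholino, so this was the dimmest probe among the 16. Array 1 of the knockdown was not well above background there, while array 2 was. The fall of apoea was 13.2-fold, a log2 change of -3.73 with SE 0.345 and an adjusted p of 0.00166. Without gata5/6 morpholino replicate 1, the array below background, the log2 change was -3.11. With a normexp background correction, which adds 50 units to each spot, it was -1.71 (adjusted p = 0.107), or -1.56 and past the threshold when the correction was refitted without spots far below background.

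The apoeb gene, by contrast, gave nearly the same signal in both groups. Its brightest probe read 7.98, 7.97 and 8.03 on the control arrays and 8.03 and 7.78 on the gata5/6 morpholino arrays. Knockdown array 1 lay within the control range and array 2 below it. The log2 change was -0.09 (SE 0.104, 95% interval -0.35 to 0.16, adjusted p = 0.581), so these data allow a fall of up to 0.35 or a rise of up to 0.16 on the log2 scale. The other apoeb probes gave the same picture. Across all 8 probes the changes ran from -0.15 to -0.01 and none passed in a fit over the 30623 probes kept, where 11.7% of probes passed in either direction and 5.63% were lower. Control means of these probes spanned 9.30-fold in signal although they read the same gene. On each of the 8 probes knockdown array 1 was above array 2, and without replicate 2 the log2 change of the brightest probe was 0.03.

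**Figure D2:**
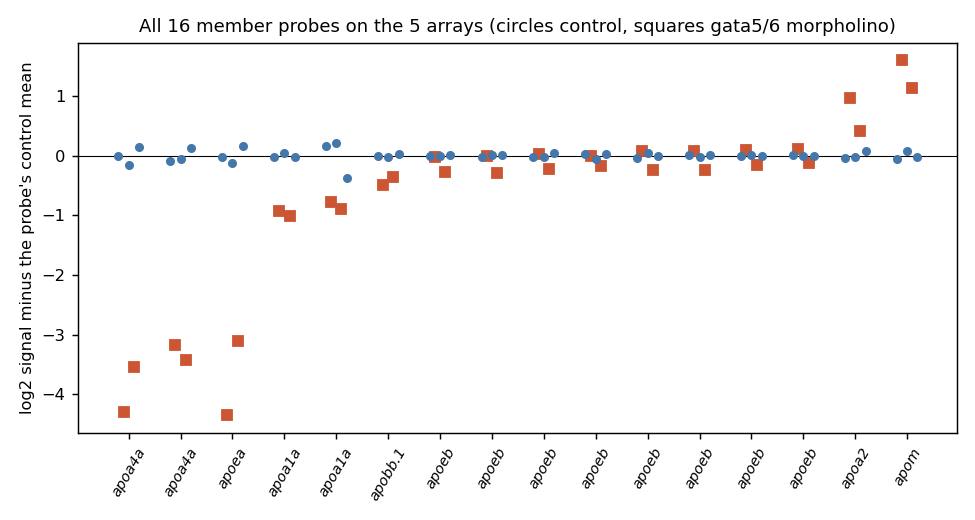
All 16 probes of the measured genes, each array's log2 signal shown as its difference from the probe's control mean. Circles are control arrays and squares gata5/6 morpholino arrays. Probes of one gene agree in direction, and the 8 apoeb probes all lie close to 0.

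Apolipoprotein A-I, the main protein of high-density lipoprotein, is encoded by apoa1a. Its log2 signal was 7.49, 7.56 and 7.48 on the control arrays and 6.59 and 6.501 on the gata5/6 morpholino arrays. The groups were far apart relative to their spread, with an SD of 0.04 (n = 3) and 0.06 (n = 2). This was a 1.95-fold fall, a log2 change of -0.97 with SE 0.0843 and an adjusted p of 0.00137. The dimmer probe gave -0.84 with control array 3 below the other controls. The call held without any single control array, and the changes ran from -1.01 to -0.92 over all arrays left out.

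Apolipoprotein B from apobb.1 is the structural protein on which a lipid particle is built. Its log2 signal was 6.81, 6.78 and 6.84 on the control arrays and 6.31 and 6.45 on the gata5/6 morpholino arrays. Both knockdown arrays were below every control array, by a smaller step than for apoa1a. The fall of apobb.1 was 1.34-fold, a log2 change of -0.42 with SE 0.0876 and an adjusted p of 0.0280. It no longer passed without control replicate 1, 2 or 3 (changes of -0.43, -0.44 and -0.41, adjusted p of 0.132, 0.105 and 0.141), nor with a separate variance for the groups (adjusted p = 0.131).

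Apolipoprotein M, a lipocalin that carries sphingosine-1-phosphate on lipoprotein particles, showed the largest rise of the 7 genes. The log2 signal of apom was 0.25, 0.39 and 0.29 on the control arrays and 1.91 and 1.44 on the gata5/6 morpholino arrays. Both knockdown arrays were above every control array. The rise of apom was 2.57-fold, a log2 change of 1.36 with SE 0.151 and an adjusted p of 0.00326. Its call held without any single control array, and the changes ran from 1.13 to 1.60 over all arrays left out.

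The gene of apolipoprotein A-II, apoa2, a small protein of high-density lipoprotein, was also higher. Its log2 signal was 5.22, 5.24 and 5.34 on the control arrays and 6.23 and 5.67 on the gata5/6 morpholino arrays. The knockdown arrays stood above the controls but differed more from each other (SD 0.39, n = 2) than the controls did (SD 0.06, n = 3). The rise of apoa2 was 1.61-fold, a log2 change of 0.68 with SE 0.170 and an adjusted p of 0.0479. It no longer passed without control replicate 1, 2 or 3 (changes of 0.66, 0.67 and 0.72, adjusted p of 0.143, 0.153 and 0.127), nor with a separate variance for the groups (adjusted p = 0.107). The change was 0.41 without gata5/6 morpholino replicate 1 and 0.96 without replicate 2. Those 2 fits leave 1 array in that group, so only their effect sizes are given.

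Differences between the genes were measured within each array, where the array's scaling cancels. For the duplicated E genes, the log2 signal of apoea minus that of apoeb was -9.87, -9.97 and -9.74 on the control arrays and -14.23 and -12.75 on the gata5/6 morpholino arrays. The groups did not overlap, and the change of apoea minus that of apoeb was -3.64 (SE 0.558). A two-sided exact permutation test gave p = 0.1, the smallest that 3 against 2 arrays allow, and 0.2 after adjustment over the 2 pairs tested of the 4 planned, so the difference did not pass. It was -2.90 without gata5/6 morpholino replicate 1, on which apoea was not above background, and -1.71 and -1.40 with the normexp fits. The other planned pairs involve apoa1b and apoba and were not analysed here.

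For the neighbours apoa4a and apoea, the within-array difference was 5.91, 5.86 and 5.88 on the control arrays and 5.92 and 5.45 on the gata5/6 morpholino arrays. Knockdown array 1 lay just above the controls and array 2 below them. The difference between their changes was -0.20 (SE 0.177, exact permutation p = 0.4, adjusted p = 0.4), so unequal change of this pair was not shown, which does not mean that they changed alike. With a normexp background correction the apoea fall shrank and this difference reached -1.90, as that method adds 50 units to every spot.

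All 21 pairs among the 7 genes were also compared, a choice made after seeing the data, and each pair gave an exact permutation p of 0.1 (0.105 adjusted over 21 pairs) except apoa4a with apoea. The A genes differed in direction. The log2 change of apoa1a minus that of apoa2 was -1.65 (SE 0.185), and that of apoa2 exceeded that of apoa4a by 4.61 (SE 0.496). Between the genes that fell less, the change of apoa1a minus that of apobb.1 was -0.54 (SE 0.0988). Between the genes that rose, the change of apoa2 minus that of apom was -0.68 (SE 0.0805).

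**Figure D3:**
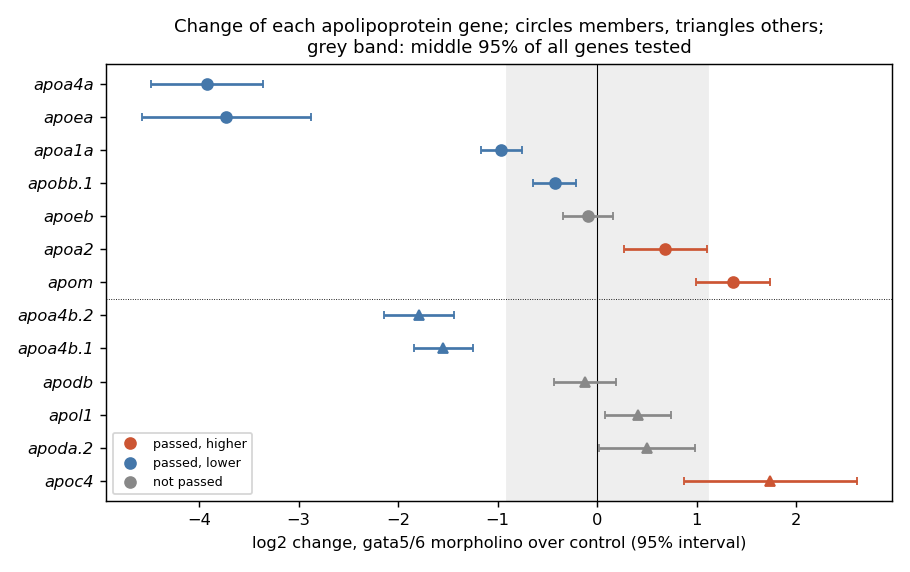
Log2 change of each apolipoprotein gene with its 95% interval, genes considered here above the dotted line and other apolipoproteins below it. Colour marks a pass at adjusted p under 0.05, and the grey band from -0.91 to 1.11 holds the middle 95% of all genes tested. Intervals of apoa4a, apoea, apoa4b.1 and apoa4b.2 lie wholly below the band.

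Of 13 other apolipoprotein genes listed, 7 had a probe and 6 were tested. Among these, 2 fell, 1 rose and 3 did not pass, against 15% of all genes in either direction. The tandem A-IV genes apoa4b.1 and apoa4b.2, whose copies the probes may not fully tell apart, fell 2.92-fold (-1.55 on the log2 scale, SE 0.121, adjusted p = 0.000982) and 3.46-fold (-1.79, SE 0.143, adjusted p = 0.00103). The other probes of these genes gave -1.42 and -2.46. The log2 signal of apoa4b.1 was 5.08, 5.21 and 5.22 on the control arrays and 3.78 and 3.47 on the gata5/6 morpholino arrays, with no overlap. The gene apoc4 rose by 1.74 on the log2 scale (SE 0.354, adjusted p = 0.0268). It was well above background on only 1 of the 3 control arrays, and entered the test only through the gata5/6 morpholino group. When probes had to be above background on every array, apoc4 dropped out and no gene of this list was higher. When dim probes were not filtered out, the call of apoc4 was lost (adjusted p = 0.0574). That call was lost without control replicate 1 (1.70, adjusted p = 0.0748) or control replicate 2 (1.46, 0.0637). The change of apoc4 was 1.505 without gata5/6 morpholino replicate 1 and 1.98 without replicate 2, fits that leave 1 array in that group.

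Gene position is given here as a description only. The pair of apoa4a and apoea was planned, and the genes were chosen with earlier results of these data known. In the RefSeq gene table of assembly GRCz12tu, apoa4a and apoea are direct neighbours with no gene between them, and both fell. The genes apoa4b.1, apoa4b.3, apoa4b.2, apoeb, apoc1, apoc4, apoa2 and apoc2 follow one another on another chromosome, with at most 1 other gene between successive members. Along this cluster apoa4b.1 and apoa4b.2 fell, apoeb did not pass, and apoc4 and apoa2 rose. The calls of apoc4 and apoa2 did not hold in every setting, and with the refitted normexp the apoc4 rise was 0.47, still passing. Differences between neighbours in this row were not tested.

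**Figure D4:**
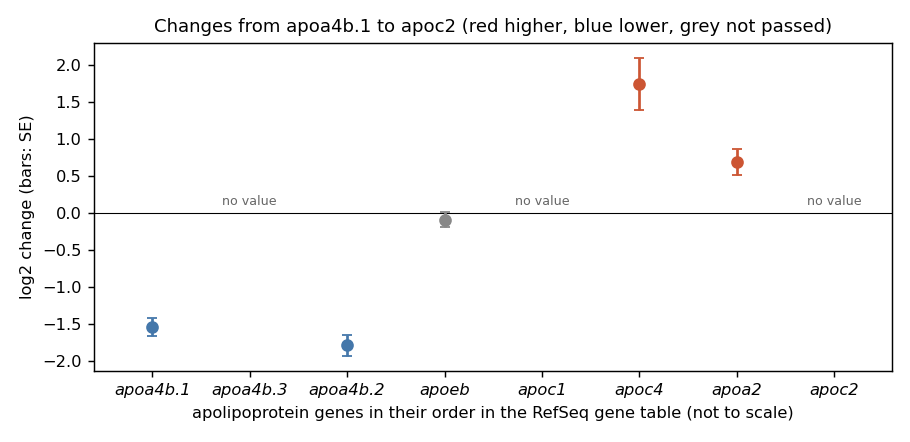
Log2 change (bars are SE) of the apolipoprotein genes from apoa4b.1 to apoc2, in the order of the gene table and not to scale. Genes without a tested probe have no value. The measured apoa4b genes are lower, and apoc4 and apoa2 are higher by calls that did not hold in every setting.

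Among genes that load lipid onto apolipoprotein B and secrete the particle, 12 of 14 listed were tested, of which 2 fell, none rose and 10 did not pass, a share near the 15% called among all genes. The gene of the intestinal fatty acid binding protein, fabp2, fell 6.41-fold (log2 change -2.68, SE 0.121, adjusted p = 0.000147), from signals of 6.93 to 6.95 on the control arrays to 4.43 and 4.08. The triglyceride synthesis gene dgat1a fell by 1.25 (adjusted p = 0.00485), which did not pass with a separate variance for the groups (adjusted p = 0.110) and was -0.26 (adjusted p = 0.107) with the refitted normexp. The gene mttp encodes the transfer protein that lipidates apolipoprotein B, and it was named after its value was seen. Its log2 change was -0.36 (SE 0.0924, adjusted p = 0.0536), close to that of apobb.1, a likeness that was not tested. The mttp change passed under some alternatives, such as quantile normalization (-0.39, adjusted p = 0.0456), and not under most.

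Among genes that remodel particles or clear them, 14 of 24 listed were tested, of which 4 rose, 1 fell and 9 did not pass, where 7.84% of all genes were higher and 7.17% lower. The phospholipid transfer protein gene pltp fell 2.03-fold (log2 change -1.02, SE 0.0824, adjusted p = 0.00104). The cholesteryl ester transfer protein gene cetp rose by 2.73 (SE 0.225, adjusted p = 0.00112) and the hepatic lipase gene lipca by 2.89 (SE 0.316, adjusted p = 0.00319). Both were dim, being well above background on 2 of the 3 control arrays, so they entered the test only through the knockdown group. When probes had to be above background on every array, 1 gene of this list was higher and 1 lower. The count of 4 rises therefore rests on the filter. The lipca rise did not pass with a separate variance for the groups (adjusted p = 0.0841). With the normexp fits the change of cetp was 0.45 by default (adjusted p = 0.834) and 0.97 refitted, and that of lipca 0.76 (0.834) and 1.29, the refitted values passing. The gene of the high-density lipoprotein receptor, scarb1, rose 1.53-fold (log2 change 0.61, adjusted p = 0.00729), a call lost without control replicate 3 (0.61, adjusted p = 0.0522).

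Among nuclear factors of yolk, liver and lipid genes, 21 of 27 listed were tested, of which 5 rose, 2 fell and 14 did not pass, where 15% of all genes passed in either direction. The bile acid receptor gene nr1h4 did not clear background on the control arrays and was kept through the gata5/6 morpholino group alone (adjusted p = 0.00839). Against the controls' mean detection limit its mean signal was 4.14-fold higher. That limit is, on each array, the dimmest detected probe or, if higher, the nr1h4 signal itself. Being so low, it does not make 4.14 a firm minimum. With the refitted normexp the log2 change of nr1h4 was 0.53 (adjusted p = 0.0122). The homeobox gene hhex rose by 0.55 (adjusted p = 0.00882), and hnf4a, whose product is known in mammals to drive apolipoprotein genes, rose by 0.62 (adjusted p = 0.0192), while prox1a fell by 0.58 (adjusted p = 0.0128). Without control replicate 1, 2 or 3 none of these last 3 passed (0.54 to 0.55 for hhex, 0.58 to 0.66 for hnf4a, -0.63 to -0.54 for prox1a). Named after their values were seen, srebf1 (0.72, adjusted p = 0.0217) and mxtx1 (0.64, adjusted p = 0.0235) were higher and hnf1bb (-0.56, adjusted p = 0.0483) lower. The call of srebf1 was lost without control replicate 2 or 3 (0.65 and 0.67), and that of mxtx1 without control replicate 1, 2 or 3 (0.59 to 0.68). That of hnf1bb was lost without control replicate 1 or 3 (-0.48 and -0.52). None of these 7 factors passed with a separate variance for the groups.

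Other secreted or transport genes known from the yolk syncytial layer and liver changed in both directions. Of 7 tested among 10 listed, 3 rose, 1 fell and 3 did not pass, where 15% of all genes passed in either direction. The liver fatty acid binding protein gene fabp10a rose by 0.71 (adjusted p = 0.00764), serpina1 by 0.48 (0.0315) and ambp by 0.45 (0.0481), and the iron exporter gene slc40a1 fell by 0.51 (0.0135). The calls of slc40a1, serpina1 and ambp were lost without control replicate 1, 2 or 3 (-0.53 to -0.48, 0.45 to 0.52 and 0.42 to 0.47). Without gata5/6 morpholino replicate 1, which leaves 1 array in that group, the change of ambp was 0.31. The fabp10a call was lost with the mean over probes (0.61, adjusted p = 0.0549), with a separate variance for the groups (0.0504) and with the refitted normexp (0.26, 0.0645). The 3 genes that did not pass, named after their values were seen, had larger changes than these, at -0.91 for ttr (adjusted p = 0.0582), -0.91 for rbp4 (0.0649) and 0.81 for cp (0.0754).

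Markers of other cell types were read on the same arrays. Of 3 tested myeloid genes among 7 listed, spi1b fell by 2.11 (adjusted p = 0.000188) and the others did not pass. The log2 of the summed linear signal of all 3 (the log2 sum) was set mostly by the brightest gene, lcp1. It was 2.60 to 3.04 in controls and 1.72 and 2.20 after gata5/6 morpholino. Probes of the myeloid genes mpx, csf1ra and mpeg1.1 were too dim to be tested. Of 5 epidermal genes, tp63 fell by 0.47 (adjusted p = 0.0491), a call lost without control replicate 1, 2 or 3 (-0.48 to -0.45), and 4 did not pass. The epidermal log2 sums were 8.62 to 8.66 in controls and 8.60 and 8.45 after gata5/6 morpholino. None of 4 tested notochord genes passed, with log2 sums of 5.08 to 5.10 and 4.75 and 4.93. The part of these cell types in the apolipoprotein changes was not tested.

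Genes with the pattern most like a given apolipoprotein gene were ranked by the root mean square difference of their log2 signals over the 5 arrays, each minus its own control mean, among 10062 genes. This is a description that mostly reflects the change between the groups. Nearest to apoa4a were bhlhe41 (difference 0.146), apoea (0.194), cyp1c1 (0.281), prlh2r (0.364) and pdcb (0.413), of which bhlhe41, prlh2r and pdcb did not clear background on the knockdown arrays. The apoea probe was well above background on only 1 knockdown array. Nearest to apom were rasd1 (0.0817), vtna (0.0838), tuft1a (0.0897), pvalb3 (0.0915) and zp3b (0.0916). Their log2 changes lay between 1.35 and 1.47.

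**Figure D5:**
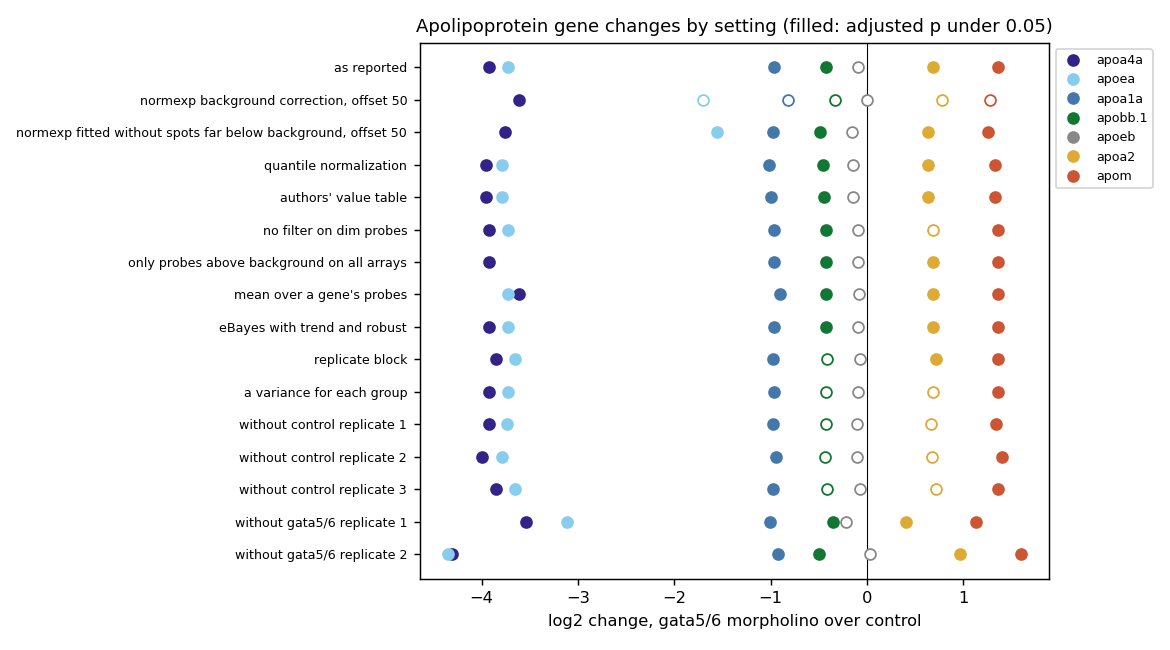
Log2 change of each measured apolipoprotein gene as reported (top row) and under each alternative setting, filled where the adjusted p was under 0.05. In rows without a gata5/6 morpholino array, 1 array is left in that group, so the fill there rests on the spread of controls alone. The plotted changes of apoa4a, which leave out its other probe (-3.30), lie between -4.30 and -3.54 and pass in every row, while those of apoa2 and apobb.1 lose their call in 6 rows each, and apoea has no value in 1 row.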

How the data were processed

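Total RNA of whole embryos was labelled with Cy3 and hybridised to 1-colour Agilent arrays, per the labels. Per the file headers, Agilent Feature Extraction 10.7.3.1 made the deposited processed intensity, background-subtracted within each array and not scaled between arrays, and version 10.7.1.1 is named in the submitters' processing notes. The authors' deposited value table holds log2 values (median 6.09 in each column). How that table was made is not stated in the sources used here. Its columns share a common distribution, are not centred, and have a correlation of 0.9998 or above with log2 signal.

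The log2 processed signal was reduced by that of the array's 75th percentile, and spots of a probe were averaged. Control spots and 52 probes with an outlier spot were left out. The 30623 probes kept had at least 1 group in which they were well above background on all arrays, a probe counting as such where any of its spots was. Accessions were matched without versions to RefSeq symbols of assembly GRCz12tu (25598 probes, 58.7%), and the brightest probe stood for a gene. The array was designed on danRer6, so no coordinates are given. The group comparison used lmFit and eBayes of limma 3.58.1, under R 4.3.3, with 3 residual degrees of freedom, and was tested on simulated data. Rose, fell, higher and lower mean the gata5/6 morpholino group against the control group.

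The genes and lists were chosen with earlier results of these data known. The rule named every measured gene of the family, the genes of each list that passed (the 4 with the smallest adjusted p where more passed), and the 5 genes nearest in pattern to the largest rise and fall. Alternatives were normexp (offset 50), quantile normalization, the authors' table, no or a stricter filter, the mean over probes or every probe separately, robust eBayes with a trend, the replicate block, a variance for each group, and leaving out each array. The result of 1 gene of the remodelling and clearance list is not reported here.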

Additional observations from a re-analysis of the deposited data

How the results depend on the processing

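The falls of apoa4a kept direction and call in all 15 alternatives beside its other probe (-3.30, also passing), those of apoa1a and rises of apom in 14 of 15, and those of apoea in 13 of 14, the exceptions being the default normexp correction. On control replicate 3 that correction was fitted on 4 spots more than 100 units below their local background. It left 19 higher and 23 lower genes of all tested (846 and 774 as reported), and 0 higher and 1 lower of the 7 apolipoprotein genes (2 and 4 as reported). Fitted without those spots, a setting chosen after seeing the data, it gave 844 and 710, and 2 and 4. The difference between apoa4a and apoea was -1.90 and -2.20 under these 2 fits and that between apoea and apoeb -1.71 and -1.40, since the added offset of 50 shrinks changes of a dim probe by construction. With the default normexp fit the sign turned for apoeb (0.00483), apoc4 (-0.044), nr1h4 (-0.057), hnf4a (-0.078), srebf1 (-0.12) and fabp10a (-0.25), and for apoeb also without gata5/6 morpholino replicate 2 (0.033, with a range of -0.22 to 0.033 over the arrays left out). The number of higher apolipoprotein genes was 1 with no filter on dim probes and 1 with a variance for each group (then 290 higher and 257 lower among all genes). Leaving out 1 control array gave 1 higher and 3 lower apolipoprotein genes, and 371 to 423 higher and 314 to 364 lower among all genes. Leaving out any 1 array gave differences of -0.43 to 0.04 (apoa4a against apoea) and -4.38 to -2.90 (apoea against apoeb). Fits without a gata5/6 morpholino array leave 1 array in that group and take their spread from the controls alone. Their calls, counted among the alternatives above and in the ranges below, are therefore no check on that group's spread. Over all alternatives the counts of higher and lower genes ran from 0 to 2 and 0 to 3 for other apolipoproteins, 0 to 3 and 1 to 4 for assembly, 0 to 5 and 0 to 5 for remodelling and clearance, 0 to 6 and 0 to 3 for nuclear factors, and 0 to 3 and 0 to 3 for secreted proteins. Where no reason is given, the cause was not tested.

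With the replicate block, 2 of the 7 apolipoprotein genes were higher and 3 lower, apobb.1 losing its call (-0.41, adjusted p = 0.1003), and 937 and 847 of all genes. Control replicate 3 has no same-numbered partner, so changes in this fit equal those without that array. For apoa2 both were 0.72, with a limma adjusted p of 0.00115 with the block and 0.127 without control replicate 3. The block leaves few residual degrees of freedom, so its calls, counted among the alternatives and ranges above, are no separate check. Deviations of same-numbered arrays correlated at 0.123 and 0.200 across genes, over only 2 pairs, so the arrays share a number and no shown pairing. Low signal limits the genes below background on some arrays, apoea, apoc4 and nr1h4 among them.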
